A study of Drosophila melanogaster with 6 samples.

Results

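Transcript levels were examined for *CG18557*, *CG3117*, *CG4650*, *SPH93* (older name *CG6639*), *CG18563* and *CG9377*, 6 genes for serine protease homologs (SPHs) among the 367 genes that the authors listed as changed in fly heads after penetrating traumatic brain injury (PTBI). They were chosen by symbol from that list, so their difference between injured and uninjured heads is what selected them, and it is described here without a test. The study compared 3 samples of injured heads with 3 samples of uninjured heads. The injured samples were taken 4 hr after both hemispheres of the central brain were pierced with a needle under CO2 anaesthesia. The paper calls the uninjured controls age- and sex-matched and does not say whether they were given CO2. All flies were males collected within 6 hr of eclosion, each sample held about 100 to 120 heads, and flies of both groups were offspring of the same cross, *w; UAS-mCD8-GFP;; OK107-GAL4* to *yw*, so that the controls carry the same transgenes (*OK107-GAL4* drives expression mainly in the mushroom body). The labels call the samples of a group biological replicates and say no more about how they were kept apart, so their spread may be partly technical. Whole heads hold brain, eye, fat body and cuticle, and in such bulk samples fewer cells of a type and less RNA per cell cannot be told apart.

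SPHs have the fold of the chymotrypsin-like serine proteases, but one or more of the catalytic histidine, aspartate and serine residues are replaced, so they are not expected to cleave proteins. Many carry an amino-terminal CLIP domain, the disulphide-knotted module also found in proteases of the Toll and melanization cascades. In beetles and moths, CLIP-domain SPHs act as cofactors in the activation of prophenoloxidase, and in *Drosophila* the SPHs masquerade and scarface act in cell adhesion and epithelial closure. RefSeq names *CG18557* cSPH125, *CG3117* cSPH94, *SPH93* cSPH93, *CG18563* cSPH156 and *CG9377* cSPH166, where the c stands for the CLIP domain. *CG4650* is SPH197 there, without the c. The names match the grouping. The catalytic residues were not examined, because no protein sequence was used here, and no value in these data bears on whether any of the 6 acts in melanization.

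The values are RPKM, read counts scaled to the length of the gene and the size of the library. They went back to whole reads (within 0.02 reads) for 357 of the listed genes in all 6 samples, which put the libraries at 24.3 to 35.2 M reads after PTBI and 26.5 to 36.2 M reads in controls. Only the listed genes have values. Among markers of the cell types a head sample can hold, none of 4 neuronal, 5 photoreceptor or 6 haemocyte markers was listed. Since 2.4% of all annotated protein-coding genes were listed, 0.708% as lower, nothing is read from a count of 0 in lists this short. Of 10 fat body markers, 4 were listed, all lower after PTBI, and of 4 glial markers 2, both lower. The only other listed marker outside the salivary gland was *Amy-p*, 1 of 6 gut markers, at 33.0 to 89.0 RPKM in PTBI samples and 13.7 to 26.6 RPKM in controls, with replicate 3 the highest of each group. Its part in the rises described next was not tested. Since a gene outside the list has no value, the labelled tissue could not be checked against these markers.

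Of the 6 SPH genes, 5 were higher 4 hr after PTBI and 1, *CG9377*, was lower, by ratios of the group means of at least 2 or at most 0.5. Over all listed genes, 70% were higher and 29.2% lower by the same limits. In none of the 6 did PTBI and control samples overlap, which was also true of 100% of the listed genes. Since this contrast chose the genes, nothing is read from these counts. With each sample scaled to its median over the listed genes, 3 of the 6 were at 2-fold or more, as *CG3117* came to 1.37 and *SPH93* to 1.85, and 3 higher genes had a mean of at least 1 RPKM. The 5 higher genes were at 2.30 to 6.28 times their control level, with a median of 5.01, where the median over the 259 genes listed as higher was 3.13. At least 3-fold higher were 4 of the 6, against 38.1% of the listed genes. The listed genes were not matched in level to these low genes, so nothing is read from these comparisons either. *CG3117* lay nearest to the authors' limit of 2-fold, at 2.30. What lies on the other side of that limit has no value here.

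**Figure D1:**
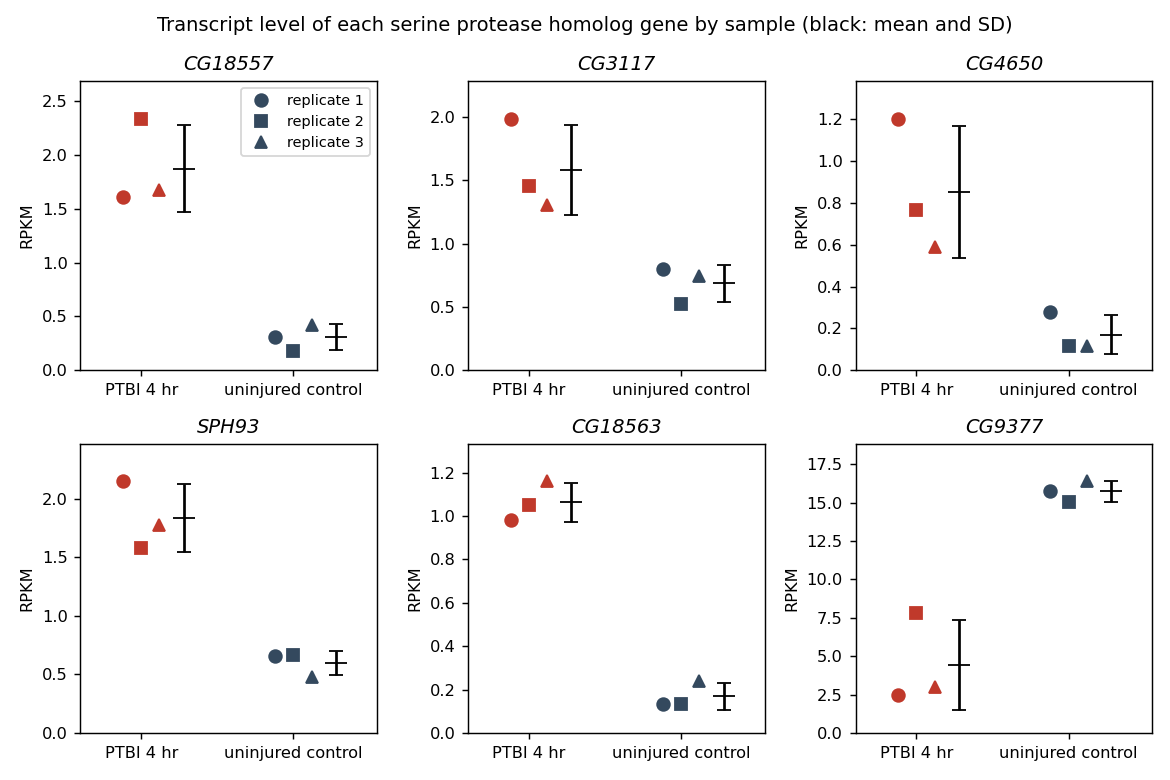
RPKM of the 6 SPH genes in the 3 PTBI samples (red, left) and the 3 uninjured controls (dark blue, right). The marker shape gives the replicate number and the black bar the mean and SD of the group. In the first 5 panels every PTBI sample lies above every control, and in the panel of *CG9377* PTBI replicate 2, at 7.83 RPKM, stands well above the other injured samples.

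By the ratio of means, *CG18563* and *CG18557* rose most. By the ratio of group medians the values were 7.83 for *CG18563*, 6.54 for *CG4650* and 5.34 for *CG18557*, and without control replicate 1 *CG4650* also lay above both, so the order of these genes is not settled. *CG18563* was at 0.980, 1.05 and 1.16 RPKM in PTBI replicates 1, 2 and 3, against 0.134, 0.133 and 0.241 RPKM in control replicates 1, 2 and 3. The injured samples are close together and the lowest of them is 4.07 times the highest control. The means were 1.06 ± 0.0905 RPKM in PTBI heads and 0.169 ± 0.0621 RPKM in uninjured heads (SD, n = 3 each), a ratio of 6.28 that rests on 37, 32 and 51 reads against 5, 6 and 8 reads. With so few control reads, counting error alone gives a spread of about 39.7% of the control mean, where 36.7% was seen.

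For *CG18557* the PTBI samples had 1.60, 2.34 and 1.67 RPKM, against 0.313, 0.180 and 0.421 RPKM in the controls. Replicate 2 is thus the highest of the injured samples and the lowest of the uninjured ones. The means, 1.87 ± 0.404 RPKM in PTBI heads and 0.305 ± 0.121 RPKM in uninjured heads (SD, n = 3 each), differed 6.13-fold, on 176 reads in all after PTBI and 29 in controls.

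*CG4650*, the gene without a CLIP-type name, had the lowest mean of the 6 after PTBI. Its level was 1.20, 0.767 and 0.590 RPKM in the injured samples, from 35, 18 and 20 reads, against 0.279, 0.115 and 0.117 RPKM in controls, from 8, 4 and 3 reads. Replicate 1 was the highest of both groups. The mean was 0.853 ± 0.315 RPKM in PTBI heads and 0.170 ± 0.0938 RPKM in uninjured heads (SD, n = 3 each), a ratio of 5.01. Its annotation holds 2 transcripts of the same outer limits, of which the longer open reading frame has 299 codons and the shorter 89, and reads per gene do not separate them.

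*SPH93* and *CG3117* rose less and stood higher in controls. The level of *SPH93* was 2.15, 1.58 and 1.77 RPKM in the injured samples, against 0.656, 0.662 and 0.475 RPKM in controls. That is 1.83 ± 0.290 RPKM in PTBI heads and 0.598 ± 0.106 RPKM in uninjured heads (SD, n = 3 each), a ratio of 3.07 on 263 and 89 reads. It is the best covered of the 5 higher genes, and its ratio ran between 2.78 and 3.28 when each sample was left out in turn.

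*CG3117* had 1.99, 1.45 and 1.31 RPKM after PTBI, against 0.800, 0.523 and 0.743 RPKM in controls. Here the groups come closest, the lowest injured sample being 1.64 times the highest control. The means were 1.58 ± 0.357 RPKM in PTBI heads and 0.688 ± 0.146 RPKM in uninjured heads (SD, n = 3 each), a ratio of 2.30. Without PTBI replicate 1, the highest, the ratio was 2.00, and by group medians it was 1.95, under the 2-fold limit.

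*CG9377* moved the other way and was by far the most abundant of the 6 in uninjured heads. It was at 2.50, 7.83 and 2.96 RPKM in the injured samples, against 15.8, 15.1 and 16.4 RPKM in controls. The SD of the controls is 4.19% of their mean, about the 4.17% that counting error gives on 559, 649 and 518 reads. The injured samples varied far more, with an SD of 66.6% of their mean, where counting error on 90, 227 and 124 reads gives about 8.25%. PTBI replicate 2 is the sample that stands apart. The means were 4.43 ± 2.95 RPKM in PTBI heads and 15.7 ± 0.659 RPKM in uninjured heads (SD, n = 3 each), a ratio of 0.28, and without PTBI replicate 2 the ratio was 0.17. Even that sample was at 52.0% of the lowest control.

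The listed fat body markers were also lower after PTBI. Summed over the 4 of 10 that were listed (*Lsp1alpha*, *Lsp1beta*, *Lsp2* and *apolpp*), they came to 135 to 314 RPKM in the PTBI samples and 1078 to 1693 RPKM in controls, and none of the 4 was at 0. Among the injured samples, PTBI replicate 1 was lowest for *Lsp1beta*, *Lsp2* and *apolpp*, as for *CG9377*, and highest for *Lsp1alpha*. The highest was PTBI replicate 3 for *Lsp1beta*, *Lsp2* and *apolpp*, and PTBI replicate 2 for *CG9377*. *Lsp2*, a larval storage protein gene, had 39.5, 76.6 and 108 RPKM in PTBI replicates 1, 2 and 3, against 668, 807 and 1179 RPKM in control replicates 1, 2 and 3. It was lowest in replicate 1 and highest in replicate 3 of each group. Of the glial markers, *wrapper* and *Mdr65* summed to 20.9 to 22.8 RPKM in PTBI samples and 58.9 to 64.8 RPKM in controls. Of 4 salivary gland markers 2 were listed, *Sgs3* and *Sgs5*, at 0 in all injured samples and at a sum of 0.407 to 2.78 RPKM in controls. The part of other tissues in the level of *CG9377* was not tested.

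**Figure D2:**
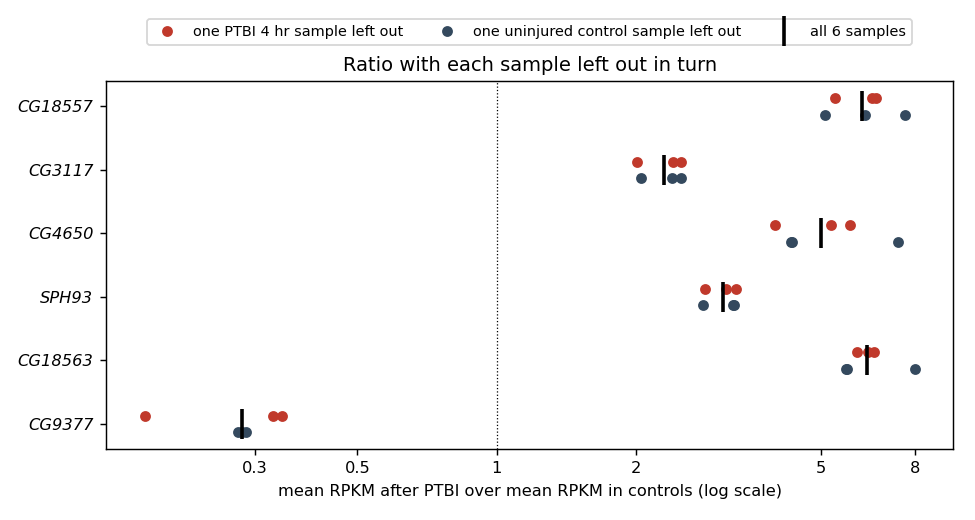
Ratio of mean RPKM after PTBI to mean RPKM in controls (log axis) for each SPH gene, with all 6 samples (black bar) and with 1 sample left out (red for a PTBI sample, dark blue for a control). No gene crosses 1, which leaving out a sample cannot bring about where the groups do not overlap. The widest shift is that of *CG9377*, from 0.28 to 0.17 without PTBI replicate 2.

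No replicate was high or low throughout. Among the injured samples, replicate 1 was highest for *CG3117*, *CG4650* and *SPH93* and lowest for *CG18557*, *CG18563* and *CG9377*. Replicate 2 of the controls was the lowest control for 5 of the 6 genes, all but *SPH93*. Together the 5 higher genes came to 7.92, 7.18 and 6.50 RPKM in the PTBI samples, against 2.18, 1.61 and 2.00 RPKM in controls. Summed, they thus differ little between replicates, with 7.20 ± 0.711 RPKM in PTBI heads and 1.93 ± 0.290 RPKM in uninjured heads (SD, n = 3 each).

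The order of the mean levels differed between the groups, though many ranges overlapped. In uninjured heads *CG9377* came first, well clear of the rest, followed by *CG3117* and *SPH93*, whose ranges overlap, and then by *CG18557*, *CG4650* and *CG18563*, whose ranges also overlap from each gene to the next. After PTBI *CG9377* was still first, *CG18557* came second, and its range overlapped that of *SPH93*, as the range of *SPH93* did that of *CG3117*. *CG18563* and *CG4650* came last and overlapped. All 5 higher genes lay in the lower part of the list: by mean RPKM over the 6 samples, only 14.7% to 27.2% of the listed genes were less abundant. For *CG9377* that share was 52.9%. By the size of the ratio, *CG18563* ranked 52 and *CG3117* ranked 215 among the 259 genes listed as higher, and *CG9377* ranked 18 among the 108 listed as lower.

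**Figure D3:**
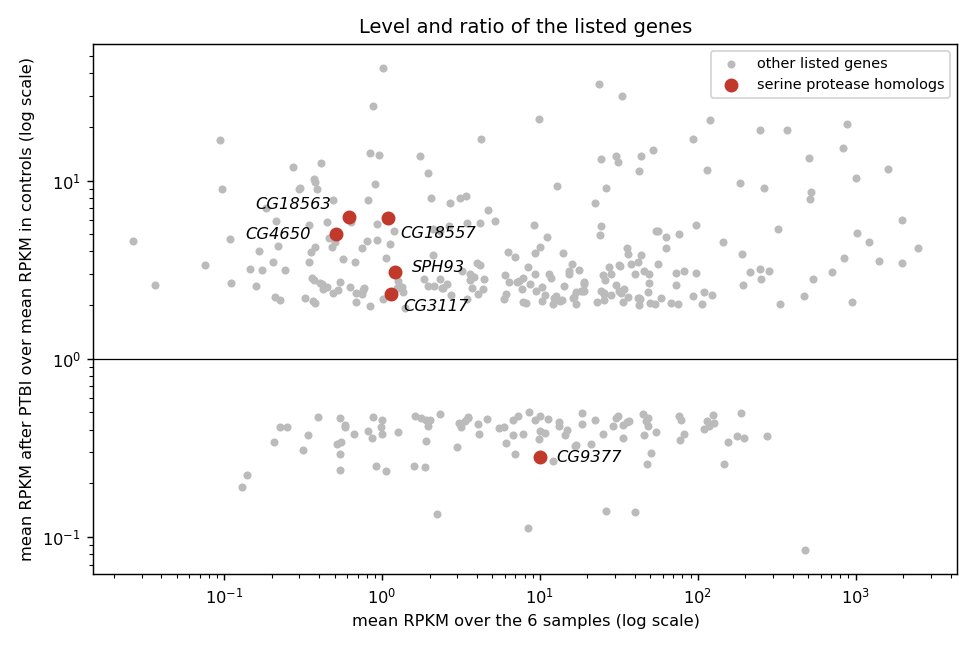
Mean RPKM over the 6 samples (x axis, log) against the ratio of mean RPKM after PTBI to mean RPKM in controls (y axis, log) for the listed genes in grey and the 6 SPH genes in red. The 5 higher SPH genes lie at 0.512 to 1.22 RPKM, in the lower part of the list, and *CG9377* lies at 10.1 RPKM. The 2 listed genes with a ratio of 0 cannot be drawn on a log axis.

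The genes were chosen by symbol, and their position is described here without a test. All 6 lie on the minus strand of chromosome arm 2L (Ensembl 115 annotation of BDGP6). Of all protein-coding genes, 12.2% of the listed and 9.28% of the annotated ones lie there. The share among SPH genes was not examined, nor was the position of *CG4998* and *CG34437*, listed SPH genes outside the 6. The 6 also include neighbouring pairs, so their positions are not independent and nothing is read from the shares. *CG18557* (2844601 to 2845734) and *CG3117* (2845926 to 2847212) are neighbours, 191 bp apart and transcribed in the same direction. *SPH93* (17454263 to 17455923) and *CG18563* (17456670 to 17458044) are a second such pair, 746 bp apart. *CG4650* (14773814 to 14774981) and *CG9377* (13359901 to 13361565) lie apart from these and from each other.

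*CG4650* has a listed neighbour as well. *CR15280* (14781715 to 14783110), annotated as a pseudogene and named SPH204 in RefSeq, is the next gene on the same strand, 6733 bp away, and has 4 exons, as *CG4650* does. Its level was 0.466, 0.272 and 0.329 RPKM after PTBI (17, 8 and 14 reads), against 0.139, 0.0457 and 0.0623 RPKM in controls (5, 2 and 2 reads), a ratio of means of 4.32. Whether similar sequence lets reads of these genes be assigned to each other was not tested. In all, 5 of the 6 SPH genes had a listed gene next to them, against 18.1% of the 360 listed genes found in the annotation. This counts both members of each pair. Each of them was chosen for being listed, which by itself gives its partner a listed neighbour, so the shares are not compared.

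**Figure D4:**
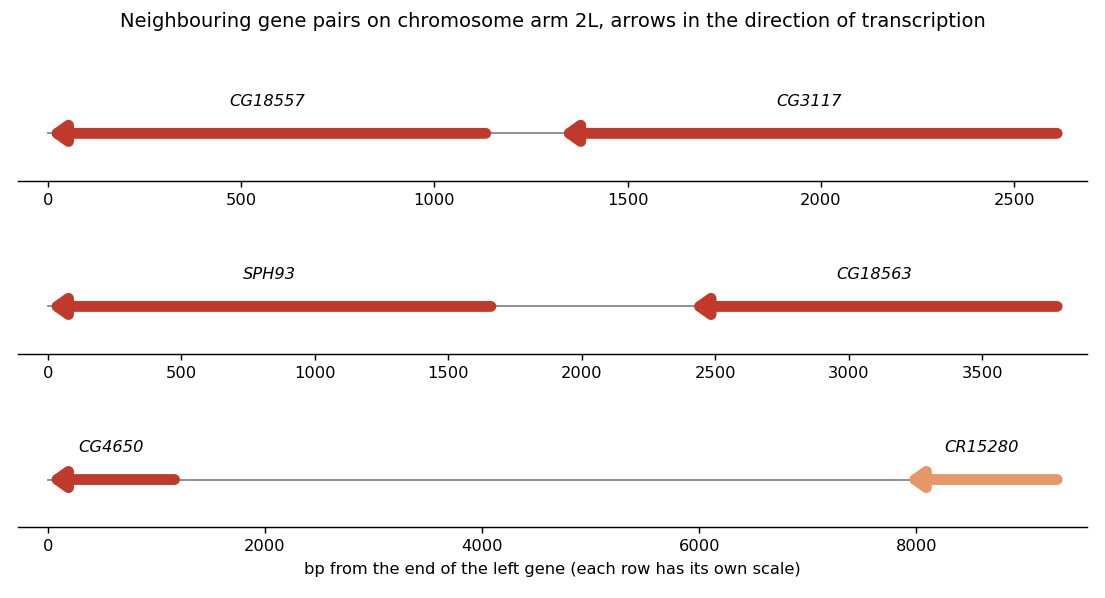
The neighbouring genes drawn to scale along the chromosome (bp, each row on its own scale), with arrows in the direction of transcription. The gaps are 191 bp between *CG18557* and *CG3117*, 746 bp between *SPH93* and *CG18563*, and 6733 bp between *CG4650* and the pseudogene *CR15280* (orange).

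The other flanking genes were not listed. Next to the first pair are *CG18558* (87 bp) and *CG2983* (419 bp), which RefSeq also names dC1GalT3 and dC1GalT8. The second pair lies inside the transcribed region of *CG5050*, on the opposite strand, without sharing an exon with it, between the noncoding gene *lncRNA:CR46204* and *BicD*, a gene for a cargo adaptor of dynein. *CG9377* lies between *CG9395* and *Nnp-1*, and *CG4701* flanks *CG4650*. No exon of any of the 6 overlaps that of another gene. The genes are short and of simple structure: 4 have 2 exons, *CG18563* has 3 and *CG4650* 4, and the open reading frames run from 299 codons in *CG4650* through 343 in *CG18557*, 347 in *CG3117*, 355 in *CG9377* and 379 in *CG18563* to 494 in *SPH93*.

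The neighbours were also compared with each other, as the ratio of their RPKM within each sample. The level of *CG18557* was 0.808, 1.61 and 1.28 times that of *CG3117* in the injured samples, against 0.391, 0.345 and 0.567 times in controls. *CG3117* was thus the more abundant of the pair in every control, and *CG18557* in 2 of 3 PTBI samples. The level of *CG18563* was 0.456, 0.665 and 0.654 times that of *SPH93* after PTBI, against 0.205, 0.200 and 0.507 times in controls. *SPH93* stayed the more abundant in all 6 samples, and PTBI replicate 1 overlapped control replicate 3. For *CG4650* over *CR15280* the ratios were 2.58, 2.82 and 1.79 after PTBI, against 2.01, 2.51 and 1.88 in controls, so the groups overlap. The first pair had a mean ratio of 1.23 ± 0.402 after PTBI and 0.434 ± 0.117 in controls (SD, n = 3 each).

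**Figure D5:**
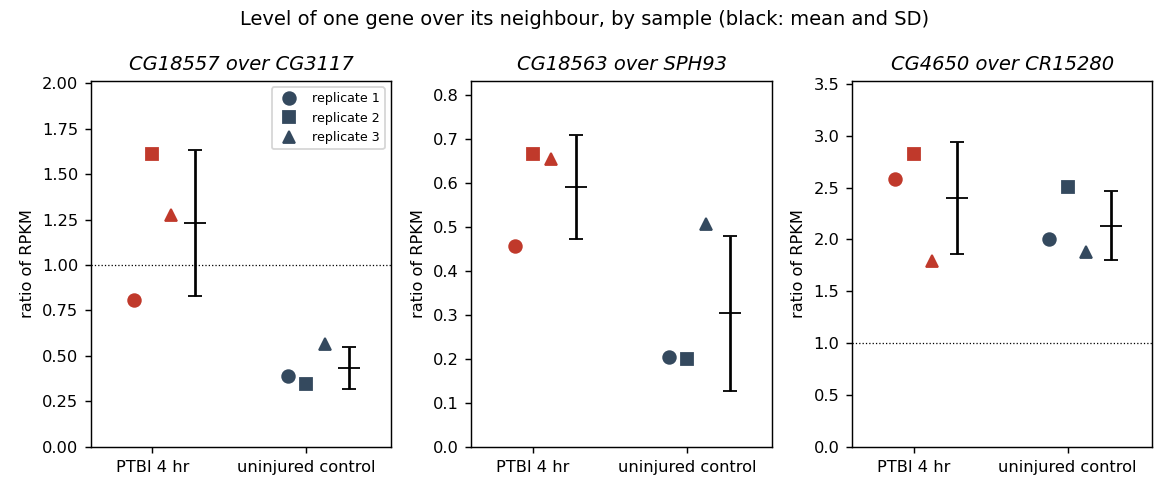
RPKM of the first gene over RPKM of its neighbour in each sample, PTBI (red, left) and uninjured (dark blue, right), with mean and SD in black; the dotted line marks equal levels where the axis reaches them. The ratio of *CG18557* to *CG3117* is between 0.808 and 1.61 after PTBI and between 0.345 and 0.567 in controls, while the ratios of *CG4650* to *CR15280* overlap.

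For each SPH gene, the 2 listed genes of most similar pattern were taken by the root mean square difference of log2(RPKM + 0.1), centred on each gene's mean, over the 6 samples. All genes compared were listed for this same contrast, so a small difference partly reflects a PTBI over control ratio of similar size. Shared regulation was not tested. *CG18557* was nearest to *PGRP-SB1*, a peptidoglycan recognition protein gene (0.23), and then to its fellow SPH gene *CG18563* (0.25), where the median over the 258 other genes listed as higher was 0.62. *SPH93* was nearest to *BomBc2* (listed as *CG15067*; 0.15), a Bomanin gene, and to the integrin gene *scb* (0.15), with a median of 0.40. *CG3117* was nearest to *CG34136* (0.12) and *Osi6* (0.18), with a median of 0.43. *CG4650* was nearest to *CG43179* (0.18) and *CG8785* (0.27), with a median of 0.58. *CG18563* was nearest to *Nepl13* (listed as *CG4725*; 0.17), of the neprilysin-like peptidases, and the tubulin gene *betaTub60D* (0.21), with a median of 0.54. *CG9377* was nearest to *CG43064* (0.20) and *CG11892* (0.28), with a median of 0.66 over the 107 other genes listed as lower. Between the neighbours *CG18557* and *CG3117* the difference was 0.69, above the medians of both genes (0.62 and 0.43). Between *SPH93* and *CG18563* it was 0.49, above the median of *SPH93* (0.40) and below that of *CG18563* (0.54).

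Serine proteases and SPHs form a large family in the fly, and 261 genes carry an SP or SPH number in RefSeq. The authors listed 26 of them, 23 higher and 3 lower, where 2.4% of all annotated protein-coding genes were listed, 1.69% higher and 0.708% lower. The 26 include the 6 described, which were chosen for being listed. With SPH names alone there are 70 genes, of which 9 were listed, or 3 of 64 without the 6. Besides the 6 described and the pseudogene *CR15280* these are *CG4998*, higher at 0.604 ± 0.116 RPKM in PTBI heads and 0.231 ± 0.0634 RPKM in uninjured heads, and *CG34437*, lower at 0.346 ± 0.105 RPKM in PTBI heads and 0.816 ± 0.124 RPKM in uninjured heads (SD, n = 3 each). *CG4998* has a CLIP-type name too, so that 6 of the 18 CLIP-domain SPH genes were listed, 5 higher and 1 lower. Of 52 SPH genes without such a name, 3 were listed, *CG4650* and *CR15280* as higher and *CG34437* as lower. Of these listed SPH genes, all but *CG4998*, *CR15280* and *CG34437* were chosen for being listed. The shares with and without a CLIP-type name are therefore not compared. The list of 6 other homologs (*mas*, *scaf*, *sphe*, *sphinx1*, *sphinx2* and *CG5390*) had no listed member.

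For the counts that follow, 2.4% of all annotated protein-coding genes were listed, 1.69% as higher and 0.708% as lower. Of the 367 listed genes, 259 were higher. The proteases with a CLIP-type name numbered 34, and 7 were listed, all as higher, at ratios of 2.19 to 9.09. *CG9733* had the largest of these ratios, with 47.3 ± 18.8 RPKM in PTBI heads and 5.20 ± 1.50 RPKM in uninjured heads (SD, n = 3 each), and the others were *CG10232*, *CG1299*, *CG18754*, *CG5909*, *Hayan* and *Sp7*. *Hayan* and *Sp7* are the listed members among 12 proteases of the Toll and melanization cascades. The level of *Hayan* was 16.8 ± 2.73 RPKM in PTBI heads and 7.64 ± 0.834 RPKM in uninjured heads (SD, n = 3 each), above that of each of the 5 higher SPH genes in every sample. Among 144 proteases without a CLIP-type name, 8 were listed as higher (*CG10663*, *CG11843*, *CG30088*, *CG30098*, *CG33459*, *CG33462*, *CG5246* and *CG7142*) and *CG12256* as lower. *CG30287*, which RefSeq names both as a protease and as a homolog, had the largest ratio of the family, 14.3. Of 28 serpin genes, whose products inhibit serine proteases, 4 were listed, all as higher. *Spn88Eb* had the largest ratio of these, 5.18, with 93.4 ± 17.9 RPKM in PTBI heads and 18.0 ± 2.73 RPKM in uninjured heads, and the others were *Spn27A*, an inhibitor of melanization, *Spn28Dc* and *Spn55B*. Genes of such families can share reads with close copies, and the sources used here do not say how reads with several matches were counted.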

How the data were processed

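Heads of 3 PTBI and 3 uninjured samples were sequenced from strand-specific mRNA libraries as single-end 50 bp reads. The authors mapped the reads with Subjunc (Subread) to the FlyBase genome, without a stated release or tool version, counted them per gene and tested them with voom and limma. The deposited RPKM values per sample, in 2 tables, cover only genes that passed both 2-fold and an adjusted p of 0.05 in the authors' analysis. The tables also hold the authors' own comparison (average level, log2 fold, p-values), which was not used. No column of other samples was present (0).

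Samples were assigned to groups by their titles and columns to samples by library name. The members and lists were chosen with earlier results of these data known. Folds are ratios of mean RPKM, SDs are over 3 samples, and no test was run, because the genes were listed for this same contrast. Library sizes were found as the smallest at which RPKM times exon length gives whole reads (tested on simulated data); counting error was taken as 1 over the square root of the mean reads and covers counting only, with PCR copies counted as reads.

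The genes named are the 6 members, the nearest annotated gene on each side (transposons left out), the 2 listed genes nearest in pattern, and listed genes of the fixed lists (*Spn*, which is no serpin gene, was left out). The family of proteases was to come from a search of protein sequences. It was instead taken, after the data were seen, from numbered SP and SPH names among RefSeq synonyms (Release 6), leaving out 2 genes of other function. Coordinates are from Ensembl 115 (BDGP6); the build of the deposited files is not stated, but its exon lengths gave whole reads. The alternatives left out 1 sample at a time, or used group medians, pseudocounts of 0.1, 1 and 5, scaling to sample medians, other limits on fold and level, and a replicate block. Deviations from the group mean were weakly correlated between same-numbered PTBI and control samples (0.24, 0.12 and 0.16 across listed genes). These values were past the limit of 0.1 set for pairing, though the labels name no shared batch. Samples of different number gave -0.21 to 0.02. Deviations from a group mean are tied to each other, so these correlations are not independent. Python 3.11.15, numpy 2.4.6, pandas 2.3.3 and matplotlib 3.10.9 were used.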

Additional observations from a re-analysis of the deposited data

How the results depend on the processing

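No SPH gene changed direction under any alternative tried. For most alternatives this was fixed in advance, since PTBI and control samples of these genes do not overlap. Leaving out a sample, group medians, pairing by number and pseudocounts therefore cannot reverse a direction, and nothing is read from this. Samples were also paired by number (replicate block, mean of the 3 same-numbered ratios). This gave 7.35 for *CG18557*, 2.34 for *CG3117*, 5.34 for *CG4650*, 3.13 for *SPH93*, 6.68 for *CG18563* and 0.286 for *CG9377*. Such a mean does not show how far its 3 ratios lie apart. With each sample left out in turn, the ratio ran from 5.09 to 7.58 for *CG18557*, 2.00 to 2.50 for *CG3117*, 3.99 to 7.35 for *CG4650*, 2.78 to 3.28 for *SPH93*, 5.67 to 7.97 for *CG18563* and 0.174 to 0.343 for *CG9377*. The counts of 5 higher and 1 lower gene held in each of these, an alternative chosen after seeing the data.

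A pseudocount brings the ratio of low genes towards 1 by its construction. With 1 RPKM added on the log2 scale, the ratio was 2.19 for *CG18557*, 1.52 for *CG3117*, 1.57 for *CG4650*, 1.77 for *SPH93* and 1.77 for *CG18563*, and with 5 RPKM added 1.29, 1.16, 1.13, 1.22 and 1.17 for the same genes. With 0.1 RPKM added, *CG18563* came to 4.38. For *CG9377* a pseudocount of 1 gave 0.297 and one of 5 gave 0.441. The median of the listed genes was 0.76 higher (log2) after PTBI, a median set by a list in which most genes were higher. Scaling each sample to that median gave 3.52 for *CG18557*, 1.37 for *CG3117*, 3.00 for *CG4650*, 1.85 for *SPH93* and 3.67 for *CG18563*, and left 3 genes at 2-fold or more. The same scaling moved *CG9377* further from 1, to 0.160. Group medians gave 5.34 for *CG18557*, 1.95 for *CG3117*, 6.54 for *CG4650*, 2.71 for *SPH93*, 7.83 for *CG18563* and 0.188 for *CG9377*. A mean of at least 1 RPKM also left 3 higher genes, as it removes *CG4650* and *CG18563*. The count of protease family genes listed was 26, and 25 with protein-coding genes only. The search of protein sequences at a stricter limit was not run. Depth limits *CG4650* and *CG18563* most, with 15 and 19 control reads in all.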
